A study of Homo sapiens with 8 samples.

Results

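Protocadherins are the largest branch of the cadherin family of cell adhesion proteins, and many of them are used by neurons to tell their own branches from those of other cells. The genes described here are those of the count table whose symbol is PCDH with a number, leaving out names that end in P and a number. This rule took 76 of the 56303 genes of the table. They are 16 PCDHB genes, 13 genes outside the clusters (called nonclustered here), 15 PCDHA genes, 22 PCDHG genes, 6 genes that are named or annotated as pseudogenes and 4 antisense genes of PCDH9. PCDH8P1 matched the pattern and was left out by the second part of the rule.

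The counts come from MeRIP-seq, in which fragmented poly(A) RNA is pulled down with an antibody against N6-methyladenosine (m6A, a methyl mark on adenosines of mRNA) and sequenced beside the same RNA without pull-down (input). The cells were SK-N-BE(2), an established human neuroblastoma line. One arm carried a control shRNA (sh-NC, called control here) and the other an shRNA against METTL14 (shMETTL14), both delivered by lentivirus with puromycin selection. METTL14 is the partner of METTL3 in the enzyme complex that writes m6A. Each arm had 2 replicates, called cultures 1 and 2 here, and each culture gave 1 IP and 1 input library, 8 libraries in all. The labels do not say which METTL14 shRNA a culture carried, nor that the cultures were grown apart, so the p-values measure the spread between these samples, which may be technical.

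METTL14 had 1771 and 1759 counts in the control inputs and 580 and 612 in the shMETTL14 inputs. In the IP libraries it had 3552 and 2375 counts in control and 763 and 789 in shMETTL14. The knockdown was seen in both cultures, and input METTL14 RNA fell by 1.79 on the log2 scale (SE 0.0663, adjusted p = 1.28e-15). Total counts ran from 32027379 to 47205265 per library. Counts of 2 were far more frequent than counts of 1 (3538 to 3945 genes against 543 to 609 genes per library), so both mates of a read pair were counted and about 2 counts stand for 1 fragment. Neuroblastoma markers (HAND2, GATA3, MYCN and 6 others) summed to 5720 to 5960 CPM (counts scaled by library size with TMM factors) in the control inputs and 6030 to 6110 in the shMETTL14 inputs. At an adjusted p under 0.05, 7 of the 9 were higher in the shMETTL14 inputs and 0 lower. Of all 22245 genes tested in the inputs, 11.7% were higher and 12.3% lower. Mesenchymal markers such as VIM and FN1 summed to 2530 to 2600 and 2130 to 2140 CPM, with 3 of 9 higher and 6 lower. MYCN and VIM had the most counts among the genes summed in these lists, so they weigh most in the sums. Schwann cell markers summed to 5.14 to 6.04 CPM in the inputs, with 0 of 4 tested genes called, and epithelial and blood markers to 7.49 to 9.09 CPM, with 1 of 4 lower and HBB without a count. In these bulk samples fewer cells of a type and less RNA per cell cannot be told apart, and the part of these markers in the results below was not tested.

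Most protocadherins lie in 3 neighbouring clusters on chromosome 5, in the order PCDHA, PCDHB, PCDHG. Each PCDHA or PCDHG gene has its own first exon, which encodes the extracellular cadherin repeats and the membrane span, and its transcript is spliced to constant exons that the cluster shares. A PCDHB gene is a single exon with no constant part. A neuron usually switches on only some of these first exons, each from its own promoter, through DNA methylation and through loops made by CTCF and cohesin, and the chosen proteins bind like with like between cells. Nonclustered protocadherins sit alone in the genome and have mostly been studied for axon growth and cell sorting. In GRCh38 coordinates of the table, the PCDHA genes start from chr5:140786136, the PCDHB genes from chr5:141051135 and the PCDHG genes from chr5:141330571, all on the plus strand. The 16 PCDHB genes had 1 merged exon each and shared 0 exonic bases with any other member. All PCDHA genes held the same 2866 bases of constant exons, and all PCDHG genes the same 2181 bases. A read on these bases was counted for every gene of the cluster, so the PCDHA and PCDHG genes are described apart.

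The promoters are shown first because all these RNA levels start from them and because most of the PCDHB genes with a window carried the same letters there. RefSeq promoter windows (GRCh38.p14, 250 bases before to 50 after the start) were given for 14 of 16 PCDHB, 11 of 13 nonclustered, 13 of 15 PCDHA and 20 of 22 PCDHG genes. Of all words of 10 letters, GGTGGCGCTG was in the most PCDHB windows, 12 of 14, each time on the plus strand and starting 2 to 84 bases before the RefSeq start. Searched on both strands, it was in 0.276% of all 35116 windows and in 0 of the windows of the nonclustered, PCDHA and PCDHG genes. The windows of PCDHB1 and PCDHB14 did not hold these 10 letters. The lines below give 30 bases around the motif, with the motif in capitals, for the 4 PCDHB genes with the highest input RNA among those with the motif, in order of level, and then for PCDHB5, the lowest of the 12.
PCDHB16, chr5:141182311-141182340, plus strand: gagaacgcgtGGTGGCGCTGcaggttaaga
PCDHB4, chr5:141121724-141121753, plus strand: caagacgcagGGTGGCGCTGcaggctaagt
PCDHB9, chr5:141187075-141187104, plus strand: gaagccacaaGGTGGCGCTGcagactgaag
PCDHB10, chr5:141192300-141192329, plus strand: gaggccacacGGTGGCGCTGcaggctaaag
PCDHB5, chr5:141135180-141135209, plus strand: taggacgcctGGTGGCGCTGcaggctaaga
The 12 genes with the motif ranged from 0.0899 to 9.65 CPM per kb of gene length in the control inputs. Of the windows without it, PCDHB14 was the fifth of the class at 2.43 CPM per kb and PCDHB1 the lowest at 0.00678. The last 5 letters of the word, CGCTG, were in 48.0% of all windows on either strand, in 9 of 13 PCDHA windows and in 20 of 20 PCDHG genes with a window. They are in capitals below for the 3 genes of these clusters whose counts stood out and whose window held them on the plus strand.
PCDHAC2, chr5:140966308-140966332, plus strand: tcctgcggtcCGCTGggatccggca
PCDHA10, chr5:140855847-140855871, plus strand: caccggatgtCGCTGtcgtccacaa
PCDHGC3, chr5:141475886-141475910, plus strand: ctctgtgtgcCGCTGtcggccaatg
In the annotation used for the counts, PCDHB16 starts at chr5:141181399 and PCDHAC2 at chr5:140966235. The stretches shown for PCDHB16 and PCDHAC2 lie after these starts, so they are before the start only by RefSeq or not at all. A match is a description of letters and no evidence of binding.

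A few PCDHB genes carried most of the PCDHB RNA. PCDHB16, PCDHB9, PCDHB4, PCDHB14 and PCDHB10 held 80.5% to 84.3% of all PCDHB counts in each of the 8 libraries. PCDHB16 was the highest of them in the control inputs, at 9.65 ± 0.129 CPM per kb (SD, n = 2), followed by PCDHB4 at 3.87 ± 0.0144, PCDHB9 at 3.69 ± 0.0434, PCDHB10 at 3.19 ± 0.159 and PCDHB14 at 2.43 ± 0.321. Down to PCDHB8, the seventh at 1.04 ± 0.0713, no gene overlapped its neighbour in this order between the 2 cultures. From PCDHB15 (0.69 ± 0.0691) to PCDHB11 (0.288 ± 0.106) each gene overlapped the next, so the order of these 7 was not resolved. At the low end stood PCDHB5 with 0.0899 ± 0.0121 CPM per kb and PCDHB1, the first gene of the cluster, with 2 counts in each control input and 0 in both shMETTL14 inputs, where 3 counts would be 0.0743 and 0.0752 CPM. PCDHB1 did not pass the low-count filter. Of PCDHB16's exonic bases 24.9% also belong to other annotated genes, and reads there were counted for both. The largest of these overlaps, 815 bases, is with the opposite-strand gene CH17-140K24.7, which had 8799 counts over all libraries. The table as a whole looked as if counted without strand: among 360 genes with 90% or more of their exons inside an expressed gene of the other strand, 307 reached 0.1 times the read density of the gene around them. The PCDHB16 level therefore includes reads that may belong to its neighbours. PCDHB9 shares 337 bases, 7.63% of its exonic bases, with the same-strand gene CH17-140K24.5, which had 8311 counts over all libraries. The PCDHB9 level may thus also include reads of that gene.

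**Figure D1:**
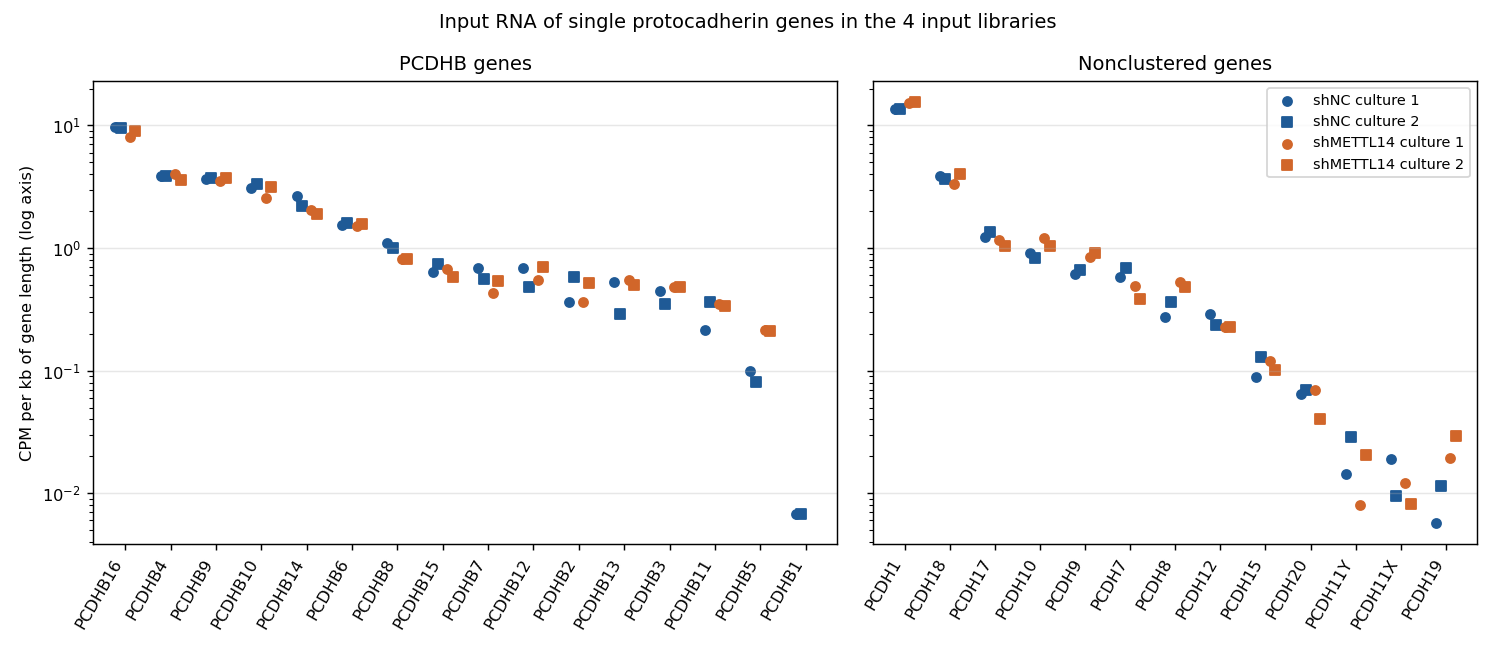
Input RNA of each PCDHB and nonclustered protocadherin gene in CPM per kb of gene length (log axis), with 1 point for each of the 4 input libraries, genes ordered by their control (shNC in the legends) mean. PCDHB16 stood alone at the top of the PCDHB genes and PCDH1 at the top of the nonclustered genes; the 2 shMETTL14 inputs had 0 counts of PCDHB1 and no point there.

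Among the nonclustered genes, PCDH1, a protein of neuronal and epithelial cell contacts, was the highest at 13.7 ± 0.0395 CPM per kb in the control inputs (SD, n = 2). PCDH18 followed at 3.79 ± 0.142 and PCDH17, which acts at synapses and in axon extension, at 1.29 ± 0.0958. PCDH10, PCDH9, PCDH7, PCDH8 and PCDH12 lay between 0.868 and 0.263 CPM per kb. Of the neighbours in this order, PCDH9 and PCDH7 overlapped, as did PCDH8 and PCDH12. PCDH15, which forms the tip links of hair cells, was at 0.109 ± 0.0275 and PCDH20 at 0.067 ± 0.00369, and 95.8% of PCDH20's exonic bases are also annotated to a same-strand gene, RP11-310K10.1. PCDH11X, its near-identical copy PCDH11Y and PCDH19 were near the limit of detection, with 2 to 12 counts in any input. Reads of PCDH11X may have been counted for PCDH11Y and the other way round, which was not tested. PCDH19 did not pass the low-count filter of the 8 libraries, and PCDH11X, PCDH11Y and PCDH19 did not pass that of the input test.

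The question for the IP libraries was which protocadherin RNAs were enriched by the m6A antibody. Nearly all PCDHB genes were. In control, 14 of the 15 PCDHB genes tested were higher in IP than in input at an adjusted p under 0.05, beside 29.1% of all 22953 genes tested, and 0 were lower, beside 29.8%. Their log2 IP over input had a median of 0.92 and ran from 0.45 to 1.50, while the median of all genes tested was -0.01. In shMETTL14, 12 of the 15 were higher, beside 28.9%, and their median was also 0.92. PCDHB11 passed in neither arm (0.45, SE 0.286, adjusted p = 0.182 in control), and PCDHB3 and PCDHB5 did not pass in shMETTL14.

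PCDHB10 was one of the most enriched genes of the cluster. Its input level was 10.1 and 10.9 CPM in control and 8.42 and 10.4 in shMETTL14, and its IP level 28.7 and 25.6 CPM in control and 23.9 and 25.8 in shMETTL14. Every IP library lay above every input library, at 2.84 and 2.36 times the input of its culture in control and 2.84 and 2.49 times in shMETTL14. On the log2 scale this was 1.38 (SE 0.091, adjusted p = 9.94e-19) and 1.41 (SE 0.0922, adjusted p = 8.44e-19). PCDHB5 and PCDHB12 gave estimates of the same size in control, 1.50 (SE 0.446, adjusted p = 0.00326) and 1.24 (SE 0.185, adjusted p = 8.48e-08), but on far fewer counts. PCDHB5 had 12 and 10 counts in the control inputs and 43 and 24 in the IPs, and in shMETTL14 its estimate was 0.63 (SE 0.379, adjusted p = 0.152). Of the exonic bases of PCDHB5, 14.7% also belong to the opposite-strand gene CH17-140K24.2, so its counts may include reads of that gene. PCDHB12 had 1.9 and 3.04 times its input in the 2 control cultures, so its cultures differed by more than those of PCDHB10, and its estimate was 0.93 without control culture 2 or 1.62 without control culture 1.

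PCDHB16, the most abundant PCDHB RNA, had 48.7 and 47.8 CPM in the control inputs and 85.6 in both control IPs. In shMETTL14 it had 40.5 and 44.9 CPM in the inputs and 78.0 and 81.1 in the IPs. The ratio of IP to input was 1.76 and 1.79 in control and 1.92 and 1.81 in shMETTL14, and the 4 cultures lay close together. PCDHB6 (0.52, SE 0.137, adjusted p = 9.05e-04) and PCDHB7 (0.54, SE 0.203, adjusted p = 0.0198) were the least enriched in control next to PCDHB11. In shMETTL14 their estimates were 0.72 (SE 0.135) and 1.01 (SE 0.207). The PCDHB7 call in control was lost without control culture 2 (0.32, adjusted p = 0.366), with library size only (adjusted p = 0.0773) and with DESeq2 (adjusted p = 0.0574), and its estimate was 0.80 without control culture 1. With a shMETTL14 culture left out, the shMETTL14 estimates ran from 0.51 to 0.93 for PCDHB6 and from 0.74 to 1.31 for PCDHB7.

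PCDHB genes are long single exons, and other genes of this build were enriched as well. Of 116 other coding genes with 1 merged exon and a length of 2740 to 8210 bases, the range of the PCDHB genes, 68 (58.6%) were higher in IP in control, with a median log2 IP over input of 0.52 and quartiles of 0.09 and 0.79. Of 8366 coding genes of any exon number in this length range, 34.6% were higher and the median was -0.0011. The PCDHB median of 0.92 lay above the upper quartile of the single-exon genes. In shMETTL14 the shares were 56.9% and 34.2%. The upper end of the length range is PCDHB1, which did not pass the low-count filter, and the longest PCDHB gene tested, PCDHB13, had 5061 bases. These are descriptions of the lists, and no list was tested.

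**Figure D2:**
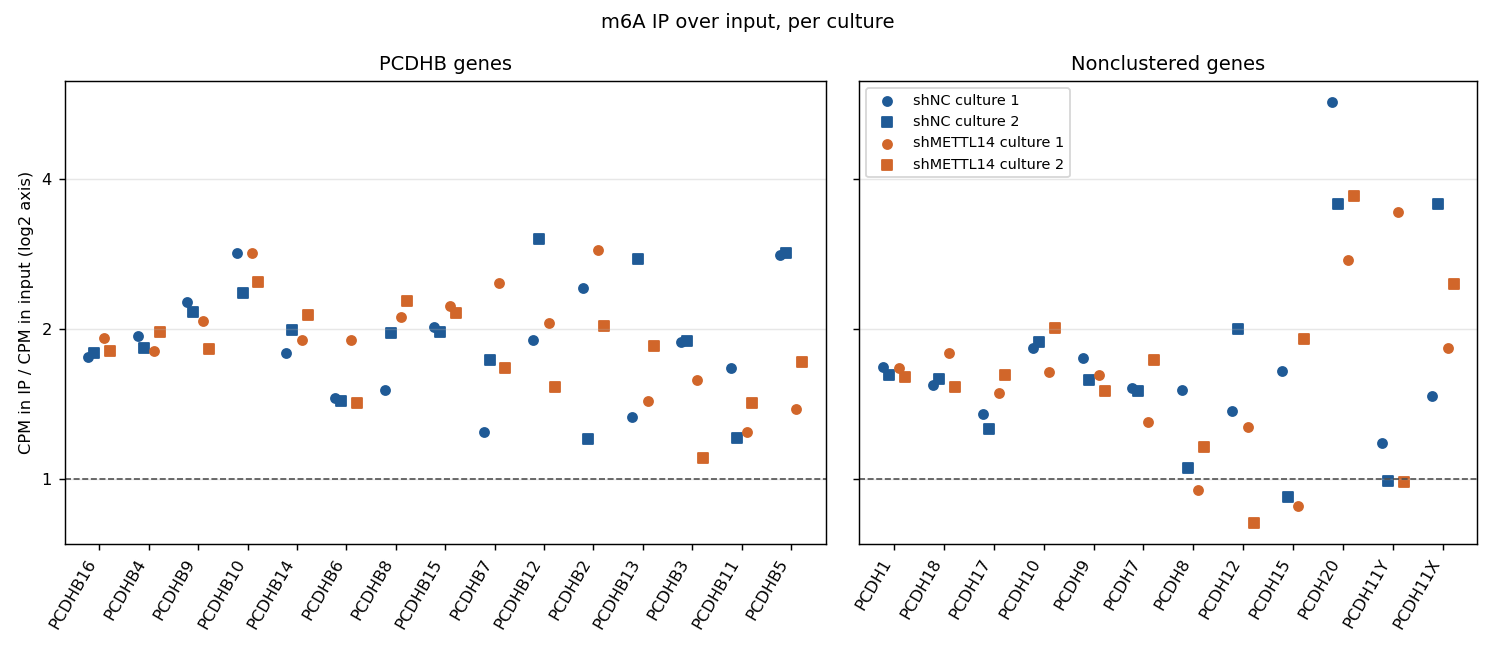
Ratio of CPM in IP to CPM in input (log2 axis) for each PCDHB and nonclustered gene tested, with 1 point per culture and genes in the order of their input level. All PCDHB points lay above 1 (dashed line); the 4 cultures of PCDHB16, the PCDHB gene with the most reads, lay at 1.76 to 1.92, while PCDHB12, with far fewer reads, lay at 1.9 and 3.04 in control.

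The nonclustered genes were enriched less uniformly. In control 8 of 12 tested were higher in IP, beside 29.1% of all genes, and 0 lower, beside 29.8%, with a median log2 IP over input of 0.68. In shMETTL14 7 of 12 were higher, beside 28.9%, and the median was 0.67. PCDH20 had the highest estimate, 2.21 in control (SE 0.435, adjusted p = 1.88e-05), with 11 and 12 counts in the inputs and 80 and 36 in the IPs. Nearly all of its reads could equally belong to RP11-310K10.1. PCDH11X, also among the 12 tested, gave 1.09 with an SE of 0.702 and did not pass (adjusted p = 0.185). It had 15 and 12 counts in the control IPs and 4 to 8 in every other library. It met the low-count filter only through the control IPs, so its estimate above 0 is no support for enrichment. PCDH10 followed with 0.89 (SE 0.0986, adjusted p = 3.25e-11). Its IP level was 1.83 and 1.88 times the input in the control cultures and 1.64 and 2.01 times in shMETTL14.

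At the other end PCDH8, PCDH15 and PCDH11Y did not pass in either arm. PCDH8, a protocadherin that takes part in the uptake of adhesion proteins at synapses, had a log2 IP over input of 0.32 (SE 0.234, adjusted p = 0.248) in control and 0.07 (SE 0.211, adjusted p = 0.791) in shMETTL14. PCDH15 gave 0.30 (SE 0.261, adjusted p = 0.333) and 0.45 (SE 0.256, adjusted p = 0.133). PCDH11Y, whose counts may include reads of PCDH11X, gave 0.03 (SE 0.707) in control. PCDH1, the most abundant, had ratios of 1.68 and 1.62 in control and 1.67 and 1.6 in shMETTL14, close to those of PCDHB16. Scaling by library size in place of TMM moved the median of all genes to -0.14 in control and -0.13 in shMETTL14, and the share of higher among all called genes from 49.5% to 39.4% and from 49.8% to 39.7%. With library size only, 21 of the PCDHB and nonclustered genes were higher in control, in place of 22, and also 19 in shMETTL14.

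The next question was whether the knockdown changed the enrichment. No protocadherin passed this test. Of the 69 members tested for a difference in IP over input between shMETTL14 and control by edgeR's quasi-likelihood test, 0 were called, beside 0.00436% of all 22953 genes (1 gene, lower), and 0 had an unadjusted p under 0.05, beside 6.34%. The PCDHA and PCDHG genes among them share reads, so these are not 69 separate results. The PCDHB and nonclustered genes were 27 of the 69. DESeq2 also called 0 members. The lowest p among the members, named here after their values were seen, were 0.0616 for PCDH12 (log2 change of -0.67, SE 0.348), 0.0719 for PCDH17 (0.26, SE 0.142) and 0.0737 for PCDHB9 (-0.19, SE 0.104), with adjusted p of 0.794, 0.805 and 0.805. Among the PCDHB and nonclustered genes, those with the most reads gave the narrowest estimates. In order of reads over all libraries, the change was -0.02 for PCDH1 (SE 0.0605), 0.07 for PCDHB16 (SE 0.0733), 0.07 for PCDH18 (SE 0.0976), -0.09 for PCDH9 (SE 0.0949), the -0.19 given above for PCDHB9, -0.0038 for PCDHB4 (SE 0.112) and 0.03 for PCDHB10 (SE 0.131). PCDHB5 gave -0.87, but with an SE of 0.59. A p that misses the threshold does not show that the enrichment stayed the same, and among the genes with few reads the SE reached 1.21 (PCDH11X).

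The input libraries alone gave the RNA levels of the 2 arms. Of 25 PCDHB and nonclustered genes tested, 4 were higher in shMETTL14, beside 11.7% of all 22245 genes tested, and 2 were lower, beside 12.3%. All 4 that rose were among the 10 nonclustered genes tested and 0 among the 15 PCDHB genes, and of the 2 that fell 1 was nonclustered and 1 a PCDHB gene. They were PCDH9, PCDH8, PCDH10 and PCDH1, while PCDH7 and PCDHB16 fell.

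PCDH9, a protocadherin of cortical and retinal neurons, had 19.1 and 20.5 CPM in the control inputs and 26.1 and 28.4 in the shMETTL14 inputs. The arms did not overlap, and the log2 fold change was 0.47 (SE 0.0734, adjusted p = 3.24e-05). Its IP level was 33.3 and 32.4 CPM in control and 42.4 and 42.6 in shMETTL14. PCDH8 had 50 and 68 counts in the control inputs and 116 and 104 in the shMETTL14 inputs, a log2 fold change of 0.68 (SE 0.222, adjusted p = 0.0281). PCDH10, which binds the WAVE actin regulators and has been studied for axon growth, had 9.2 and 8.43 CPM in control and 12.2 and 10.4 in shMETTL14 (0.37, SE 0.109, adjusted p = 0.0149). PCDH1 rose least, from 80.6 and 81.0 CPM to 89.4 and 91.7 (0.17, SE 0.0432, adjusted p = 0.00462). In each of these 4 genes both shMETTL14 inputs lay above both control inputs.

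PCDH7, which has been studied in tumour spread, had 7.05 and 8.46 CPM in the control inputs and 6.02 and 4.74 in the shMETTL14 inputs. It fell by 0.52 on the log2 scale (SE 0.14, adjusted p = 0.0073). PCDHB16 fell by 0.17 (SE 0.0572, adjusted p = 0.0307), from 48.7 and 47.8 CPM to 40.5 and 44.9. It was the only one of 15 PCDHB genes tested that was called. PCDHB5 and PCDHB14 lay just outside the threshold and are named after their values were seen. Both were called in the model of 8 libraries (adjusted p = 0.0397 and 0.0222), when each library had to hold 10 counts or more (0.0164 and 0.0453) and with counts halved to stand for fragments (0.0374 and 0.0416). Neither was called with library size only, with no filter on low counts (0.082 and 0.302) or with DESeq2. With the replicate number as a block, PCDHB14 was called and PCDHB5 was not. The log2 fold change with a culture left out ran from 1.11 to 1.38 for PCDHB5 and from -0.42 to -0.15 for PCDHB14. PCDHB5 had 12 and 10 counts in control and 31 and 30 in shMETTL14 (1.24, SE 0.457, adjusted p = 0.0513), and PCDHB14 had 12.8 and 10.6 against 9.88 and 9.19 CPM (-0.29, SE 0.108, adjusted p = 0.0539). CH17-140K24.2, which overlaps 501 bases of PCDHB5 on the other strand, had 26 and 37 counts in the control inputs and 55 and 62 in the shMETTL14 inputs. Reads on these bases may belong to either gene. The PCDHB counts as a whole came to 125 and 122 CPM in the control inputs and 111 and 117 with the knockdown, and the nonclustered counts to 158 and 161 against 173 and 177 CPM. Without shMETTL14 culture 2 none of the 6 called genes passed, and PCDH9 was then at 0.40 with an adjusted p of 0.0516, PCDH8 at 0.74, PCDH10 at 0.47, PCDH1 at 0.15, PCDH7 at -0.36 and PCDHB16 at -0.25. Without shMETTL14 culture 1 only PCDH9 and PCDH7 were called, without control culture 2 PCDH10 and PCDH7 were lost, and without control culture 1 PCDH8 and PCDHB16 were lost. With a culture left out, the fold change ran from 0.48 to 0.91 for PCDH8, from 0.25 to 0.47 for PCDH10, from -0.70 to -0.36 for PCDH7 and from -0.25 to -0.10 for PCDHB16. The calls of PCDH8, PCDH10 and PCDHB16 were also lost with DESeq2 (adjusted p = 0.118, 0.0627 and 0.0899) and, like that of PCDH7 (0.186), with no filter on low counts (0.137, 0.15 and 0.259).

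**Figure D3:**
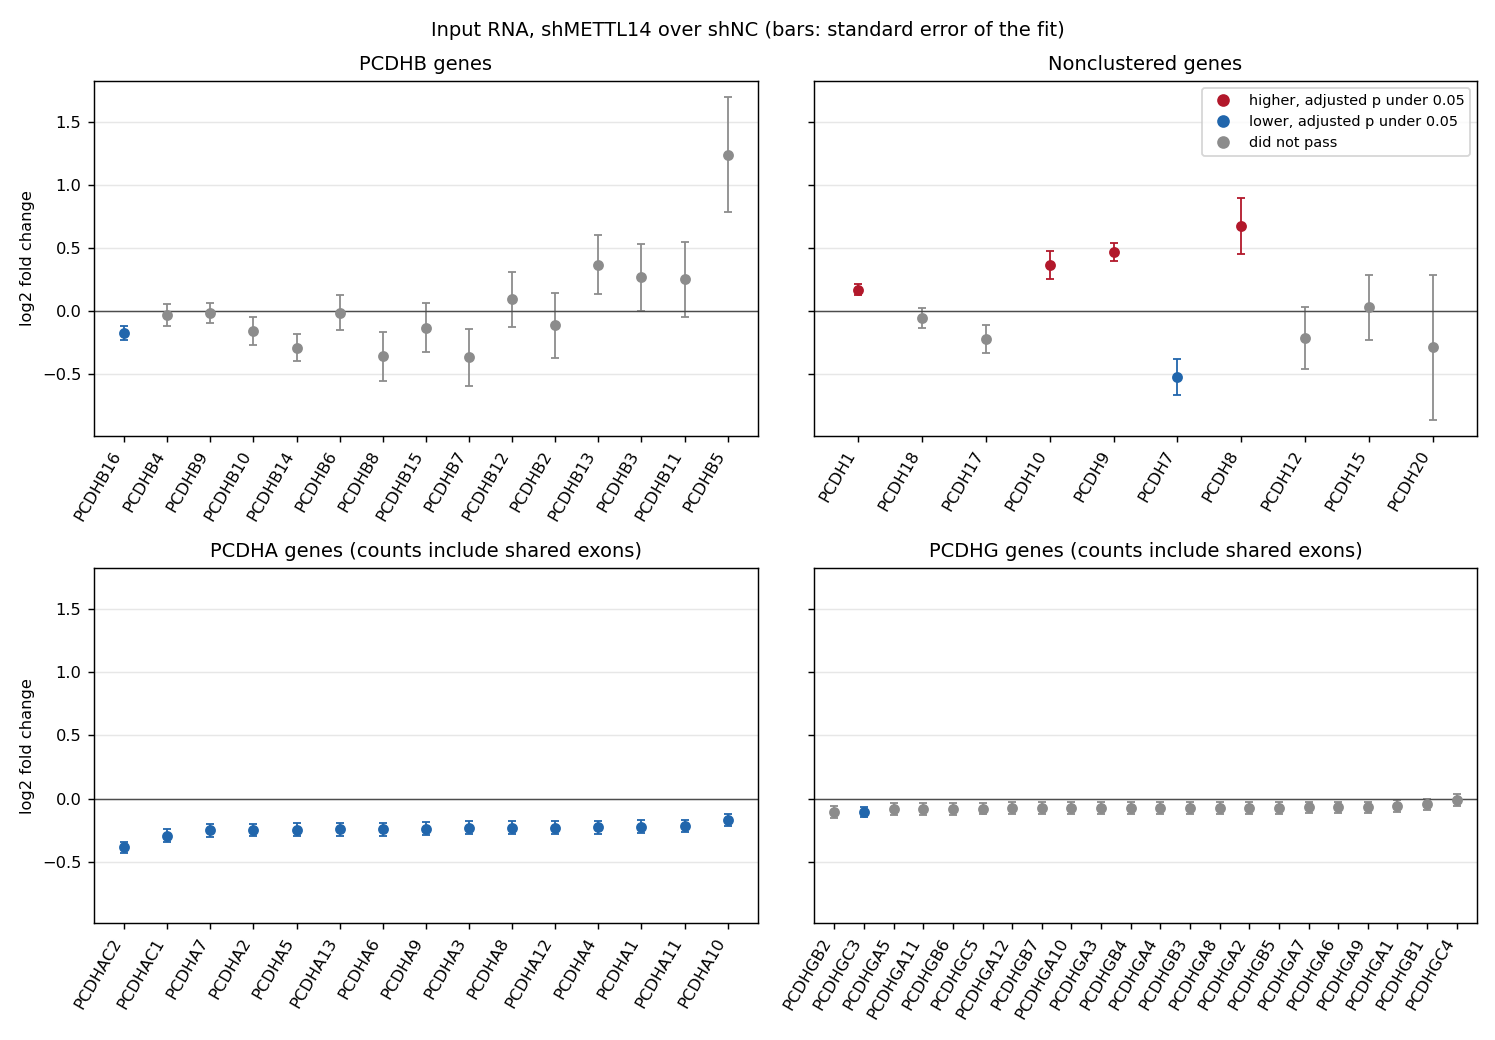
Log2 fold change of input RNA, shMETTL14 over control, with the standard error of the fit, for every tested member of the 4 classes; PCDHB and nonclustered genes are ordered by level and PCDHA and PCDHG genes by fold change. Red points rose and blue points fell at an adjusted p under 0.05; all PCDHA genes, which share constant exons, lay between -0.39 and -0.17, and all PCDHG genes between -0.11 and -0.01.

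In the PCDHA cluster all 15 genes were lower in the shMETTL14 inputs, beside 12.3% of all genes, with log2 fold changes from -0.39 to -0.17 and a median of -0.24. They share the constant exons, so these are not 15 separate results. The lowest member of the cluster in all 8 libraries was PCDHA13, with 1961 and 1899 counts in the control inputs, which was 67.8% and 65.3% of the highest member. The counts of PCDHA13 can be read as an upper estimate of what the shared exons gave every member, and the counts of another member beyond it as a lower estimate of its own exons. By this measure only a few first exons carried many reads. PCDHAC2, the last first exon before the constant exons, had 26.0 and 28.0 CPM beyond the lowest member in the control inputs. PCDHA10 had 17.6 and 17.4, PCDHA11 13.3 and 13.4, PCDHAC1 9.96 and 10.2 and PCDHA8 5.26 and 5.24, and each of the other members was at 3.52 or below. PCDHA14, annotated as a pseudogene, lies wholly inside PCDHA10, so the PCDHA10 value includes its reads.

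The arms differed in which PCDHA gene had the most counts. In the control libraries it was PCDHAC2, with 2892 and 2908 input counts, and in the shMETTL14 libraries PCDHA10, with 2691 and 2621. PCDHA10 is annotated with 15224 bases and PCDHAC2 with 6318, and per kb PCDHAC2 stayed ahead of PCDHA10 in the inputs of both arms, at 12.8 ± 0.0317 against 4.68 ± 0.114 CPM per kb in control and 9.73 ± 0.0102 against 4.14 ± 0.0355 in shMETTL14 (SD, n = 2). PCDHAC2 and PCDHAC1, the C-type first exons that are expressed more evenly among neurons than the others, had the largest falls of the cluster, by 0.39 (SE 0.0454, adjusted p = 5.53e-07) and 0.29 (SE 0.0491, adjusted p = 7.18e-05). Beyond the lowest member PCDHAC2 went from 26.0 and 28.0 to 16.4 and 16.2 CPM and PCDHAC1 from 9.96 and 10.2 to 6.18 and 7.2 CPM, with no overlap of the arms in either. PCDHA10 beyond the lowest member was at 17.6 and 17.4 in control and 18.5 and 17.4 in shMETTL14, so its arms overlapped, and its whole count had the smallest fall, by 0.17 (SE 0.0467, adjusted p = 0.00954). Its call was lost with no filter on low counts (adjusted p = 0.0896), without control culture 1 (0.0719) and without shMETTL14 culture 1 (0.0917) or culture 2 (0.155). The third largest fall, 0.25 for PCDHA7, was close to the 0.24 of PCDHA13, whose counts serve here as the upper estimate of the shared reads. Without shMETTL14 culture 2 the calls in the cluster went from 15 to 3.

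The PCDHG cluster was led by 1 gene. PCDHGC3, a C-type gene found in many neurons and also outside the nervous system, had 5880 and 6217 input counts in control, while the lowest member, PCDHGA3, had 2560 and 2656. Beyond the lowest member PCDHGC3 had 92.9 and 98.7 CPM in control and 88.4 and 86.3 in shMETTL14. PCDHGB2 (5.57 and 4.55 CPM in control) and PCDHGC4 (3.69 in both) came next. PCDHGC4 was at 6.91 and 6.46 CPM beyond the lowest member in shMETTL14 and PCDHGB2 at 3.09 and 3.3, without overlap of the arms, but these are small differences of large counts and were not tested. Only PCDHGC3 was called lower in shMETTL14 (-0.10, SE 0.0381, adjusted p = 0.0488), and the median of the cluster was -0.07. That call was lost without control culture 2, without either shMETTL14 culture, with the replicate number as a block (adjusted p = 0.0515) and with DESeq2 (adjusted p = 0.0787).

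The shared exons of the 2 clusters went opposite ways in the IP. All 15 PCDHA genes were higher in IP than in input in both arms, beside 29.1% of all genes in control and 28.9% in shMETTL14, with a median log2 value of 0.79 in control and 0.75 in shMETTL14. Of the 22 PCDHG genes 21 were lower in control, beside 29.8%, and 20 in shMETTL14, beside 29.1%, with medians of -0.25 and -0.20, and PCDHGC3 was the only one higher (0.23, SE 0.0411, adjusted p = 3.57e-06 in control and 0.26, SE 0.0413, adjusted p = 2.63e-07 in shMETTL14). With library size only, 21 PCDHG genes were lower and 1 higher in each arm. The gene that passed in neither direction in shMETTL14 was PCDHGB2 (-0.06, SE 0.0478, adjusted p = 0.263). The lowest PCDHA member had 1.68 and 1.78 times its input level in the control IPs and 1.69 and 1.67 times in shMETTL14. The lowest PCDHG member of the IP had 0.827 and 0.826 times the level of the lowest in the input in control. In shMETTL14 it had 0.868 and 0.852 times. The lowest PCDHG member was PCDHGA3 except in the IP of control culture 2, where it was PCDHGA8. In that culture PCDHGA3 itself was at 0.827 times its input. Without shMETTL14 culture 2 the count of PCDHG genes lower in the shMETTL14 IPs went from 20 to 6.

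The reads beyond the lowest member did not follow the shared exons in the PCDHG cluster. Of the 9 PCDHG members with at least 1 CPM of such reads in all 4 inputs, 9 had more of them in IP than in input in both control cultures and in shMETTL14 culture 1, and 8 in shMETTL14 culture 2, with medians of 1.49 to 1.74 times. PCDHGC3 had 141 and 134 CPM of them in the control IPs, at 1.51 and 1.36 times the input. In the PCDHA cluster all 8 such members were above 1 in all 4 cultures, with medians of 1.65 to 1.75 times, near the ratio of PCDHA13.

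**Figure D4:**
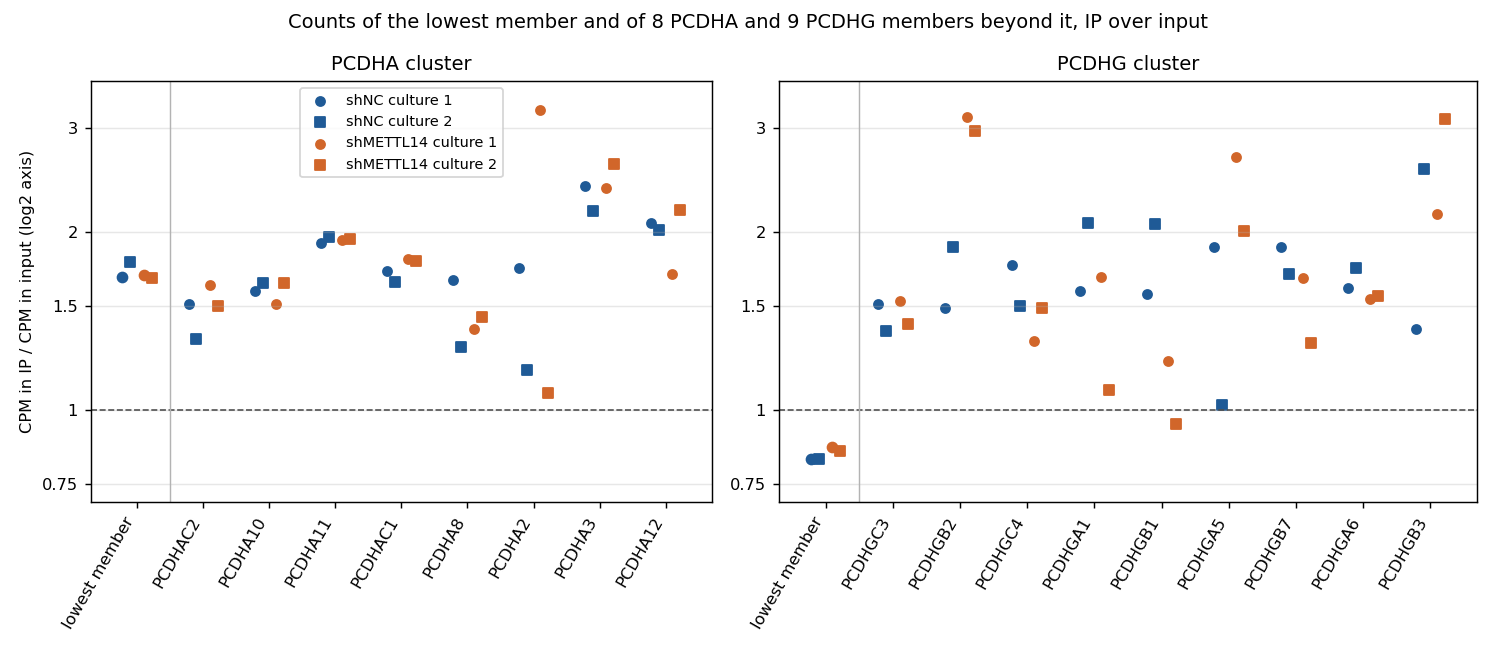
Ratio of CPM in IP to CPM in input (log2 axis) for the lowest member of the PCDHA and PCDHG clusters, which stands for the shared exons, and for the reads of 8 PCDHA and 9 PCDHG members beyond it, with 1 point per culture. The lowest member was taken for each library apart. The lowest PCDHG member lay at 0.826 to 0.868, below 1 (dashed line), while nearly all points of the reads beyond it lay above 1; in the PCDHA cluster both lay above 1.

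Of the 6 pseudogenes, 5 passed the filter, 3 were higher in IP in both arms (PCDHA14, PCDHB18P and PCDHB19P), beside 29.1% and 28.9% of all genes, and 0 of them changed in the inputs. PCDHB19P had 50 and 65 counts in the control inputs and 193 and 121 in the IPs, and 864 of its bases are also annotated to an opposite-strand gene. The 4 antisense genes of PCDH9 had 0 to 2 counts in any library. PCDH9-AS1 shares 144 exonic bases with PCDH9 and had no count in any of the 8 libraries, where 3 counts would be 0.0636 to 0.0937 CPM.

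Genes that work with protocadherins moved in both directions in the inputs, where 11.7% of all genes were higher in shMETTL14 and 12.3% lower. Of 17 genes for the looping and silencing of the clusters, 1 was higher and 7 were lower in shMETTL14, with a median log2 fold change of -0.02 beside 0.0024 for all genes. DNMT3A, a de novo DNA methyltransferase, rose by 0.24 (SE 0.0329, adjusted p = 6.68e-06), and DNMT3B, which methylates the first exon promoters in neural development, fell by 0.42 (SE 0.104, adjusted p = 0.00389). The cohesin subunit STAG2 fell by 0.33 (SE 0.0393, adjusted p = 6.19e-07). CTCF and the cohesin subunit SMC1A were among the other genes that fell. Of 13 actin regulators and kinases that bind protocadherin tails, 4 were higher, led by CYFIP2 (0.34, SE 0.0676, adjusted p = 4.85e-04) and TAOK2 (0.33, SE 0.0406, adjusted p = 1.08e-06). A further 4 were lower, led by ABI2 (-0.27, SE 0.0423, adjusted p = 3.32e-05) and NCKAP1 (-0.18, SE 0.0422, adjusted p = 0.00214). Of 8 genes of the proteases that cut protocadherins, 1 was higher, the presenilin gene PSEN2 (0.60, SE 0.104, adjusted p = 1.04e-04), and 0 lower.

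Other cadherins were set beside the protocadherins. Of 16 other large cadherins tested, 5 were higher in shMETTL14, beside 11.7% of all genes, and 0 lower, beside 12.3%, with a median of 0.10. CLSTN2, a synaptic calsyntenin, had 42 and 36 counts in the control inputs and 107 and 89 in the shMETTL14 inputs (1.10, SE 0.252, adjusted p = 0.00189). CDH23, the tip link partner of PCDH15, had 26 and 16 against 47 and 53 counts (1.02, SE 0.362, adjusted p = 0.041). Of 14 classical and related cadherins tested among 21 listed, 2 were higher, CDH22 (1.04, SE 0.361, adjusted p = 0.0386) and CDH10 (0.61, SE 0.163, adjusted p = 0.00691), and 1 was lower, CDH11 (-0.37, SE 0.0724, adjusted p = 4.87e-04). In the IP, 4 of the 16 large cadherins were higher than input in control and 2 lower, and of the 14 classical cadherins 1 was higher and 2 lower, beside 29.1% and 29.8% of all genes. Of the PCDHB genes 14 of 15 were higher. None of the 5 lists held a gene called for a change of IP over input.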

How the data were processed

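The authors deposited raw counts per gene for 8 MeRIP-seq libraries, with gene lengths and exon positions; the submitters' processing notes name Trimmomatic 0.36 and GRCh38, and the aligner, counter and its settings are not given in the sources used here. The tests ran in edgeR 4.0.16 under R 4.3.3 (filterByExpr, TMM, glmQLFit, glmQLFTest, Benjamini-Hochberg, threshold 0.05), with DESeq2 1.42.0 as an alternative, on all genes. The standard error is the absolute log2 fold change over the square root of F. The input comparison used 4 libraries, and IP over input, per arm and its change, 1 model of 8 libraries. CPM use the TMM factors of the 8 libraries, and CPM per kb the table's gene length. Counting error is small for genes with many counts, and 2 cultures per arm set the precision.

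Replicate libraries differed by more than sampling noise (chi-square per gene of 2.43 to 3.99, part of which comes from counting both mates). By the protocol 1 RNA sample gave both libraries of a culture, so the number pairs them; the correlation of their deviations was 0.004 and 5.7e-05 over 22953 genes. The numbers of the 2 arms share only a label (-0.012 for inputs). The fits were tested on simulated data.

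Members and lists were chosen with earlier results of these data known. Named are METTL14, PCDHB and nonclustered genes called in the inputs, the 3 at each end of input level per kb and of IP over input in sh-NC, PCDHA and PCDHG genes leading in counts, in reads beyond the lowest member or in change, and the 2 largest called each way per list; other genes are said to be named after their values were seen. Further genes named with levels fill the order between these. One gene of a marker list is not reported here and was left out of that list's sums and counts.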

Additional observations from a re-analysis of the deposited data

How the results depend on the processing

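With 2 cultures per arm, the calls of the inputs were the least stable. Of the PCDHB and nonclustered genes, 4 were higher and 2 lower; these became 2 and 0 with no filter on low counts, 2 and 1 with DESeq2 and 5 and 3 in the model of 8 libraries, when each library had to hold 10 counts or more, and with halved counts, and ran from 0 to 4 and from 0 to 2 with a culture left out. The 15 lower PCDHA genes ran from 3 to 15 with a culture left out. The 1 lower PCDHG gene became 0 with library size only, with no filter, with the replicate block and with DESeq2, and ran from 0 to 1. The 20 PCDHG genes lower in the shMETTL14 IPs ran from 6 to 20. The IP libraries alone, which do not remove RNA changes, gave 3 higher and 18 lower members in place of 0. PCDHB16 was at 10.0 CPM per kb with library size only, and PCDHA10 at 17.3 CPM beyond the second lowest member. Signs turned only in genes that did not pass. In control, PCDH11Y went to -0.0997 with library size only and ran from -0.0042 to 0.2382 with a culture left out, and PCDH15 from -0.1094 to 0.7279. In shMETTL14, with a culture left out, PCDH11Y ran from -0.0174 to 1.7502, PCDH15 from -0.1769 to 0.9386 and PCDH8 from -0.0716 to 0.2183, and PCDH8 went to -0.0483 with library size only. Halving the counts, chosen after seeing the data, left the counts of members called within 1.5 times. With the replicate number as a block 5593 genes were called in the inputs in place of 5339, PCDHB14 joined the calls (adjusted p = 0.0363) and PCDHGC3 left them (adjusted p = 0.0515); the block on the culture changed no call of a member in the other 3 comparisons. Where no cause is named above, the cause was not tested.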
